A study of Mus musculus with 9 samples.

Results

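The effect of the p62 S351A mutation was examined in mouse livers that lack autophagy, by comparing 3 Atg7-KO;p62 S351A libraries with 3 Atg7-KO libraries over every gene of the count table. The 6 libraries were chosen by their labelled genotype and are part of a set of 9 poly(A) RNA libraries. The Atg7-KO mice carried Atg7flox/flox with an Alb-Cre transgene, in which the albumin promoter drives Cre in hepatocytes, so that the other cells of the liver keep Atg7. The Atg7-KO;p62 S351A mice, called S351A below, carried the same floxed alleles and the same transgene together with the S351A knock-in on both p62 alleles, which is present in every cell of the body. The 3 cont. mice carried Atg7flox/flox without Cre and are used for levels, and no S351A mouse with intact Atg7 was among the samples analysed here. Livers were taken at 3 months of age, and each library is labelled as a separate mouse.

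p62, encoded by Sqstm1, binds ubiquitinated proteins and gathers with them into liquid droplets called p62 bodies, which autophagy normally removes. KEAP1, the adaptor of a ubiquitin ligase, marks the transcription factor NRF2 for degradation, and p62 that is phosphorylated at the mutated serine binds KEAP1 tightly and so spares NRF2. NRF2 switches on genes for glutathione synthesis, conjugation of foreign compounds, NADPH supply and iron storage, and livers without autophagy are known for high levels of these genes. The comparison asks how far the transcriptome of such livers differs when p62 retains less KEAP1.

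The mutated residue is shown here within its coding sequence because it is the only designed difference between the groups. The codon changed in S351A, 1 of 442, lies in exon 7 of 8 of Sqstm1, at chr11:50202517-50202519 on the minus strand (GENCODE transcript, GRCm38). Codons 341 to 361, from chr11:50202487-50202549, read as follows in the reference, with the codon changed in S351A in capitals.
Sqstm1 codons 341 to 361: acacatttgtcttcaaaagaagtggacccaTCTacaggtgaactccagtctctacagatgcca
The genotype field of the labels names the second allele S352A for S351A replicate 2 and S353A for S351A replicate 3, whereas all 3 sample titles name S351A on both alleles. In the reference, the codon at the position of S351A is a serine codon and those at the positions of S352A and S353A are not, so the titles were followed. The counts hold no sequence and cannot check the allele.

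Depth differed between the groups. The S351A libraries held 713835 to 792366 counts and the Atg7-KO libraries 1945469 to 3675041, with no overlap, so that depth and genotype cannot be told apart. A level of 3 counts corresponded to 3.45 to 3.73 CPM (counts scaled to the library's size and TMM factor) in S351A and to 0.696 to 1.37 CPM in Atg7-KO. The S351A libraries differed more from each other (median absolute log2 difference over genes 0.362 to 0.462) than the Atg7-KO libraries did (0.199 to 0.227), and the spread between the groups was 0.31 to 0.385. After the Atg7-KO counts were thinned to the mean total of the S351A libraries, 755944, with S351A left as it was, and levels were rescaled, these ranges were 0.327 to 0.426, 0.276 to 0.3 and 0.326 to 0.384. Xist and Y-linked counts showed 1 male and 2 female livers in each of these groups, with replicate 1 the male in both. The cont. livers were 2 males and 1 female by the same counts.

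Atg7 was lower in both groups than in cont., and its remaining reads did not separate the alleles since a transcript without the floxed exon can still be counted. Its level was 30.2, 28.0 and 28.4 CPM in Atg7-KO livers, 21.8, 24.8 and 22.2 CPM in S351A livers and 48.4 CPM on average in cont. The log2 fold change of S351A over Atg7-KO was -0.33 ± 0.22 (SE), with an adjusted p of 0.849 in edgeR's quasi-likelihood test. All fold changes below are S351A over Atg7-KO from that test, fitted over all 9 libraries, and each SE is the log2 fold change divided by the t value that its p implies.

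A single gene passed the thresholds of an adjusted p below 0.05 and a fold change above 1.5. Among 11199 genes tested, Tekt5 fell and no gene rose, which is 0.00893% of genes called lower and 0% called higher. At an unadjusted p below 0.05 there were 379 genes higher (3.38%) and 360 lower (3.21%), together 6.6%, and over all genes the log2 fold change had a median of 0.01. DESeq2, the tool of the study, called 26 genes higher and 22 lower with the same thresholds, of 4858 genes for which it gave an adjusted p (0.535% and 0.453%). All 48 had the same direction and an unadjusted p below 0.05 in edgeR. In all 48 the libraries of the groups did not overlap, against 16.9% of all genes tested. Both tools read the same counts, so these matches are not independent support for the calls. The edgeR calls were 5 higher and 5 lower when only the 6 compared libraries were fitted, and 61 higher and 37 lower without a filter on low counts. The split of unadjusted calls depended on the scaling, with 259 higher and 486 lower under total library size and 287 higher and 460 lower when the 20 top genes were left out of the library size.

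**Figure D1:**
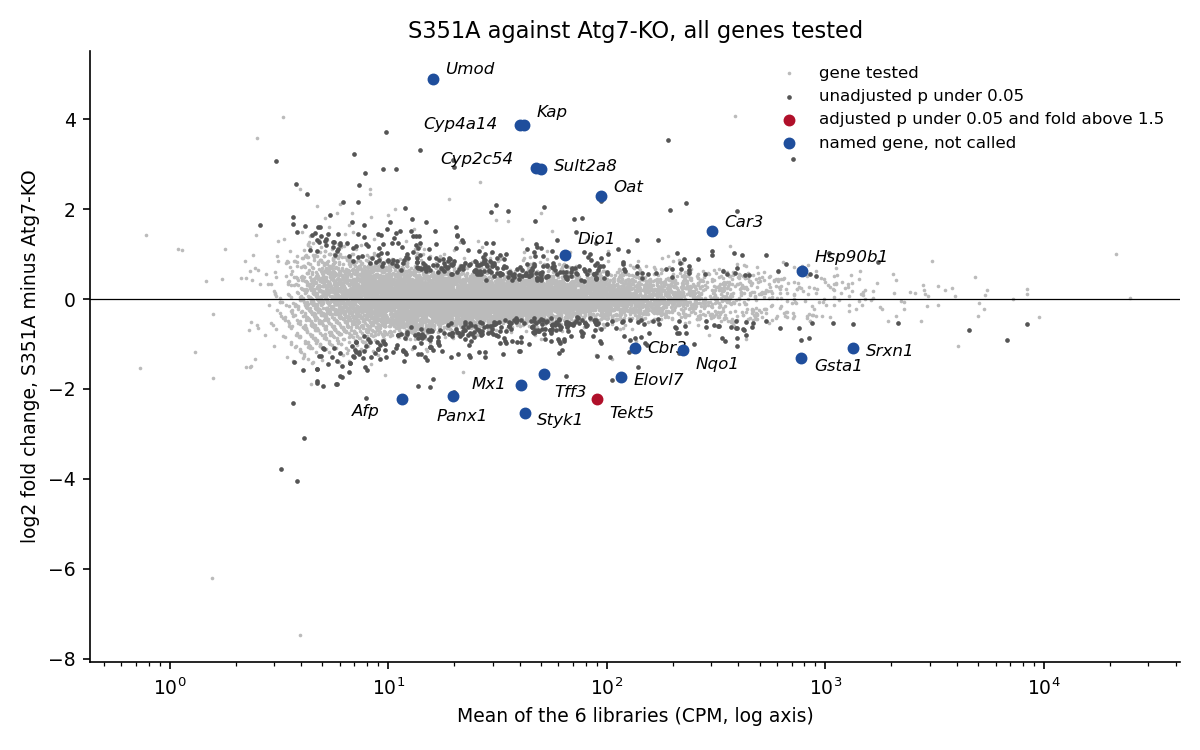
Log2 fold change of S351A over Atg7-KO (vertical axis) against the mean level of the 6 libraries in CPM (horizontal log axis), with 1 point for each of 11199 genes tested. Tekt5, in red, is the gene called at an adjusted p below 0.05, and the named genes in blue were not called by edgeR.

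Tekt5 encodes a tektin, a filament protein known from the sperm flagellum. Its level was 104, 186 and 153 CPM in Atg7-KO livers against 37.9, 24.8 and 32.1 CPM in S351A livers. The cont. libraries had 0, 0 and 0.179 CPM. The groups were thus fully apart, and Tekt5 was 4.66 times lower in S351A, with a log2 fold change of -2.22 ± 0.28 and an adjusted p of 0.0344. Over 20 alternative fits its log2 fold change lay between -2.43 and -2.03 and its adjusted p between 1.12e-07 and 0.305. The call was lost in limma-voom (adjusted p 0.0545), when cont. replicate 1 was left out (0.0754), when Atg7-KO lost replicate 2 (0.203) or 3 (0.239), and when S351A lost replicate 1 (0.055), 2 (0.305) or 3 (0.283). Tekt5 lies at chr16:10357948-10395490 on the minus strand (GRCm38).

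The genes that form the p62, KEAP1 and NRF2 circuit itself gave no call. Sqstm1 had 481, 575 and 595 CPM in Atg7-KO and 407, 380.0 and 437 CPM in S351A. The groups did not overlap, and the log2 fold change of -0.43 ± 0.21 had an adjusted p of 0.766. Keap1 had 79.1, 88.7 and 88.8 CPM in Atg7-KO and 63.2, 99.3 and 58.0 CPM in S351A. Nfe2l2, which encodes NRF2, had 49.6, 84.0 and 63.6 CPM in Atg7-KO and 36.8, 52.2 and 97.5 CPM in S351A, and its direction changed when single libraries were left out. Both genes overlapped between the groups, with adjusted p of 0.908 and 0.986. Of 12 genes of the circuit and its partners, such as Cul3, Nbr1, Tbk1 and the small MAF factors, none had an unadjusted p below 0.05, and 1 (Sqstm1) was lower without overlap, as were 9.23% of all genes.

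NRF2 target genes were lower in S351A than in Atg7-KO as a group, although edgeR called none of them. All 42 genes of the list were tested, 37 had a negative and 5 a positive log2 fold change, and their median was -0.58 against 0.01 for all genes. An unadjusted p below 0.05 was reached by 24 lower genes and 1 higher gene, 57.1% and 2.38% of the list, against 3.21% and 3.38% of all genes. The 3 libraries of each group did not overlap for 29 lower and 2 higher members, where 9.23% and 7.67% of all genes were without overlap in these directions. DESeq2 called 11 members lower and none higher, against 0.453% and 0.535% of all genes for which it gave an adjusted p. The list was drawn up from known NRF2 targets with results of these livers known, and its count is therefore not independent evidence of its direction.

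The NRF2 list had similar levels in all 3 S351A libraries. Its median log2 level relative to the Atg7-KO mean was -0.53, -0.61 and -0.58 in S351A replicates 1 to 3 and -0.11, 0.13 and 0.05 in the Atg7-KO replicates. The median fold change stayed between -0.65 and -0.55 on the log2 scale over 20 alternative fits. The number of members with an unadjusted p below 0.05 and lower levels ranged from 15 (without S351A replicate 2) to 29 (the 6 compared libraries alone). It was 16 and 17 when Atg7-KO replicates 2 and 3 were left out. Without S351A replicate 1, a library that stood apart for kidney genes (below), it was 19. The count over all genes also moved, from 360 lower in the main fit to 287, 512, 201, 223 and 359 in these fits, in the order named.

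**Figure D2:**
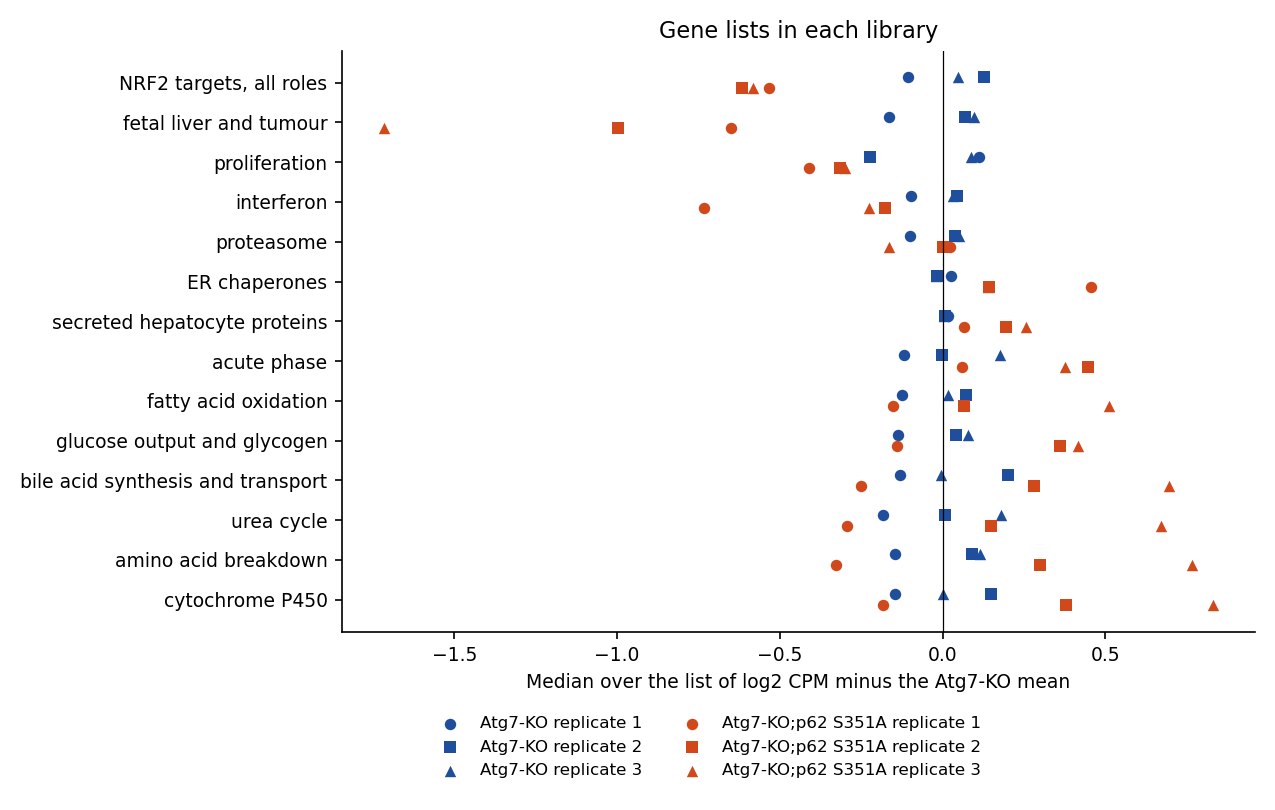
Median over each gene list of the log2 level (log2 CPM with a prior count of 2) minus the mean of the Atg7-KO libraries, for each of the 6 libraries, with symbols for the replicates. The NRF2 medians of S351A lie together between -0.61 and -0.53, whereas those of the cytochrome P450 list run from -0.18 to 0.83.

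All 5 genes of glutathione synthesis and cystine uptake were lower, without overlap and with an unadjusted p below 0.05 (9.23% and 3.21% of all genes). Gclc, the catalytic subunit of the rate-limiting enzyme of glutathione synthesis, had 844, 1199.9 and 985 CPM in Atg7-KO and 569, 456 and 584 CPM in S351A, a log2 fold change of -0.91 ± 0.25 (adjusted p 0.466 in edgeR, 0.0136 in DESeq2). Gsr, which returns oxidised glutathione to its reduced form, had 271, 399.9 and 328 CPM against 185, 163 and 149 CPM, a log2 fold change of -1.01 ± 0.25 (adjusted p 0.364 and 0.0095). These 2 members were called by DESeq2. Gclm, the modifier subunit, and Gss, the second enzyme of the pathway, had log2 fold changes of -0.76 ± 0.24 and -0.48 ± 0.19 and were called by neither tool. Slc7a11, the cystine transporter, varied most, with 227, 133 and 134 CPM in Atg7-KO and 118, 13.7 and 7.40 CPM in S351A. Its cont. libraries held 0, 0.704 and 0.09 CPM. The male S351A liver, replicate 1, was thus close to the Atg7-KO range while the female S351A livers were far below it, and replicate 1 also held the most kidney gene counts per library size (590.5 CPM, against 135 and 40.7 CPM in replicates 2 and 3). The part of sex or of other tissue in this difference was not tested.

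Glutathione transferases were divided in their levels. Gsta1 had 815, 1256 and 1253 CPM in Atg7-KO and 531, 392 and 411 CPM in S351A, 2.49 times lower, with a log2 fold change of -1.32 ± 0.34 (adjusted p 0.382 in edgeR and 0.00959 in DESeq2). Gsta2, its neighbour in sequence, had 156, 219 and 218 CPM against 109, 80.7 and 109.8 CPM (log2 fold change -0.98 ± 0.25), and reads shared by these similar genes could be assigned to either. Gstm1 had 8847, 10742 and 10169 CPM against 6365, 6627 and 7137 CPM, a log2 fold change of -0.56 ± 0.24, and Gstm4, Gsta4 and Gstm3 were also without overlap. Gsta3, Gstm6 and Gstp1 overlapped between the groups, with log2 fold changes of 0.14, 0.08 and -0.05. These 3 had been lower in Atg7-KO than in cont. in the same fit (-0.89, -1.37 and -1.47). Of the 10 members, 6 were lower without overlap and none was higher without overlap, against 9.23% and 7.67% of all genes.

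Among the quinone, carbonyl and epoxide enzymes, 4 of 7 were lower without overlap, against 9.23% of all genes. Nqo1, the quinone reductase often used as a readout of NRF2, had 225, 364 and 328 CPM in Atg7-KO livers, 114, 170.1 and 135 CPM in S351A livers and 12.7, 21.5 and 8.51 CPM in cont. Its log2 fold change was -1.13 ± 0.32 with an adjusted p of 0.468 in edgeR and 0.0611 in DESeq2, so that the S351A libraries lay between both other groups without a call against Atg7-KO. Cbr3, a carbonyl reductase, had 161, 210.3 and 177 CPM against 105, 77.0 and 74.0 CPM, and 0.636, 1.41 and 0.627 CPM in cont. It had the smallest p of the whole NRF2 list (log2 fold change -1.10 ± 0.23, adjusted p 0.311) and was called by DESeq2 (0.00348). Cbr1 and Ephx1, the microsomal epoxide hydrolase, had log2 fold changes of -0.60 ± 0.25 and -0.49 ± 0.22. Aox1, Ptgr1 and Akr1b8 overlapped between the groups.

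Of 5 genes for the pentose phosphate pathway and other NADPH supply, 4 were lower without overlap, against 9.23% of all genes. Pgd, the second NADPH-producing enzyme of the pathway, had 431, 476 and 460.3 CPM in Atg7-KO and 318, 228 and 168 CPM in S351A (log2 fold change -0.94 ± 0.24, adjusted p 0.382 in edgeR and 0.0095 in DESeq2). Taldo1, the transaldolase, had 138, 181 and 181 CPM against 107, 65.8 and 92.6 CPM (-0.91 ± 0.25), and DESeq2 called it as well. G6pdx, the entry enzyme, had 46.4, 47.7 and 44.4 CPM against 26.4, 31.0 and 12.3 CPM (-0.99 ± 0.33). Taldo1 was lower in S351A than in every cont. library (118, 113 and 165 CPM), unlike Pgd and G6pdx, whose S351A levels stayed above those of cont. Me1, which makes NADPH outside this pathway, overlapped between the groups.

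All 4 thioredoxin and peroxiredoxin genes were lower without overlap, 3 of them with an unadjusted p below 0.05 (9.23% and 3.21% of all genes). Srxn1, which repairs overoxidised peroxiredoxins, had 1465, 2126 and 1853 CPM in Atg7-KO livers, 1012, 959.9 and 603 CPM in S351A livers and 64.2, 58.8 and 47.4 CPM in cont. Its log2 fold change was -1.08 ± 0.27, with an adjusted p of 0.364 in edgeR and 0.00356 in DESeq2. Txn1, thioredoxin itself, had 815, 968 and 982 CPM against 587, 491 and 694 CPM (-0.64 ± 0.22), and Txnrd1, its reductase, had 279, 289.7 and 234 CPM against 195, 124 and 159 CPM (-0.75 ± 0.23).

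Genes for export, glucuronidation, heme and iron were more mixed. Abcc4, an exporter of conjugates at the basolateral membrane, had 195, 229 and 188 CPM in Atg7-KO and 122, 83.2 and 97.5 CPM in S351A (log2 fold change -1.01 ± 0.28), and Abcc2 and Abcc3 overlapped. Ugt1a6a, a glucuronosyltransferase, was the member with the opposite sign at an unadjusted p below 0.05, with 19.95, 7.54 and 16.5 CPM against 43.7, 28.6 and 22.2 CPM (1.09 ± 0.44, adjusted p 0.715). Blvrb, a biliverdin reductase, had 373, 476 and 448 CPM against 237, 267 and 211 CPM (-0.86 ± 0.21, DESeq2 adjusted p 0.00214). Fth1, the ferritin heavy chain, had 4302, 6379.7 and 6149.7 CPM against 3869, 3235 and 3279 CPM (-0.70 ± 0.26, DESeq2 adjusted p 0.0483). Hmox1, heme oxygenase, was without overlap in the other direction at 7.89, 5.74 and 8.69 CPM against 9.19, 9.93 and 12.3 CPM, a difference of a few counts per library (log2 fold change 0.49 ± 0.43).

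Relative to cont., the NRF2 list had a median log2 fold change of 1.17 in Atg7-KO and of 0.71 in S351A. Both values use the same cont. libraries, whose mix of sexes differs from that of the other groups (2 males and 1 female). Clear examples of a level between both others were Nqo1, Cbr3, Srxn1, Gsta1 and Abcc4, which in S351A remained above every cont. library and below every Atg7-KO library.

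**Figure D3:**
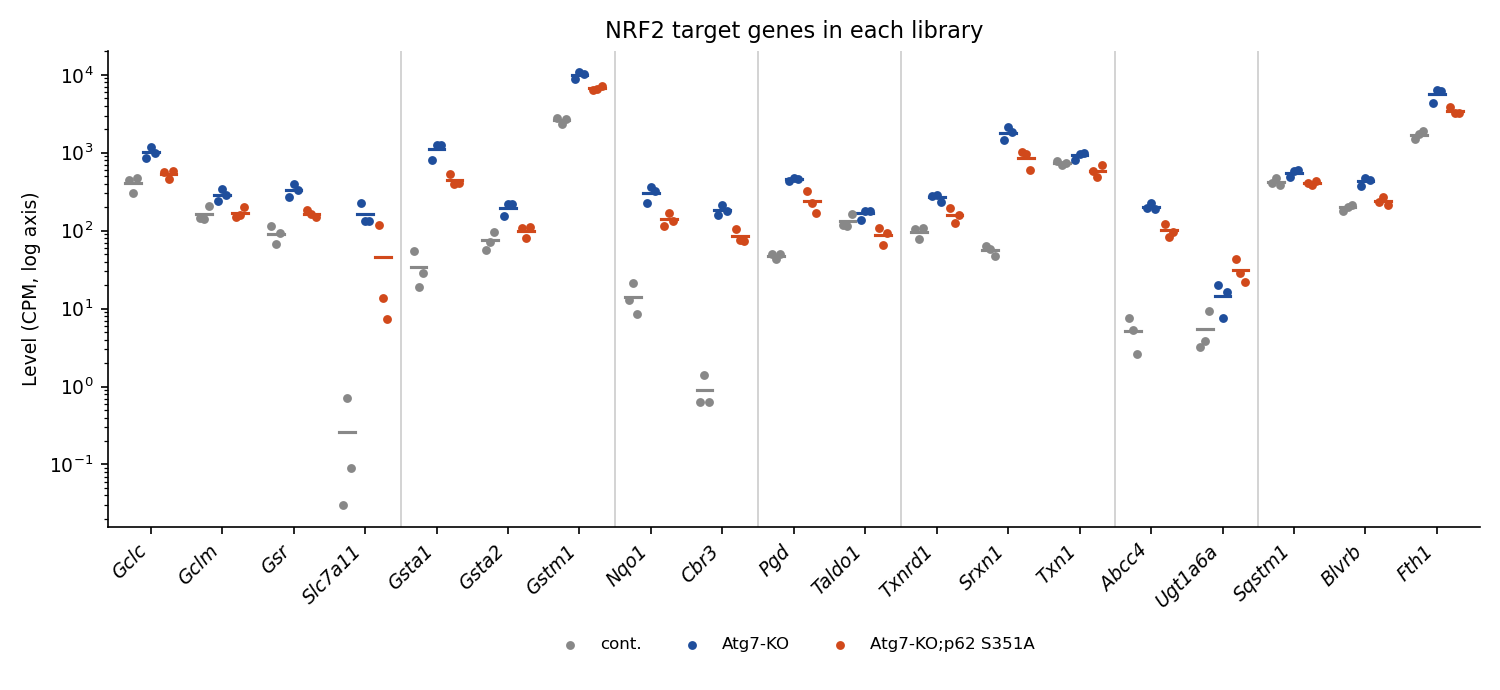
Level of 19 NRF2 target genes in each library (CPM, log axis), with points for libraries, short lines for group means and vertical lines between roles. A library with 0 counts is drawn at 0.03 CPM. For every gene shown other than Ugt1a6a the 3 S351A libraries lie below the 3 Atg7-KO libraries.

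Promoters were read because many members of the list were low together. The RefSeq table of the GRCm38.p6 assembly held promoters for 37 of the 42 members, as windows from 250 bases before to 50 after the start. The core of the antioxidant response element, TGACNNNGC on either strand, was found in at least 1 window of 11 of these genes (29.7%), against 17.1% of the 8575 tested genes with a window and 14% of all genes with one. Ugdh, which makes the substrate of glucuronidation, held 2 matches at 132 and 94 bases before its start, whereas the windows of Nqo1 and Gstm1 held none. The 250 bases before the start of Ugdh (chr5:65435843-65436092, minus strand) and of Tekt5 (chr16:10395456-10395705, minus strand) are given because the former holds the matches and the latter belongs to the called gene, with matches in capitals.
Ugdh: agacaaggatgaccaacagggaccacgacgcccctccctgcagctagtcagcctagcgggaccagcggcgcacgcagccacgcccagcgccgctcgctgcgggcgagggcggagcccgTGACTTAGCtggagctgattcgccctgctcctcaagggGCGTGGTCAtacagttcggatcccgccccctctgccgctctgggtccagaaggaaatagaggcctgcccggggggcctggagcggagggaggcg
Tekt5: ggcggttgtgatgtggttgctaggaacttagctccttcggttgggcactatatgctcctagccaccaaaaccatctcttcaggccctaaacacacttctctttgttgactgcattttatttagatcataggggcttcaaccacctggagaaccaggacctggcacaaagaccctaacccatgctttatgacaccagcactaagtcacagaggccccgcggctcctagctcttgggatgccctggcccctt
Ugdh had 401, 484 and 372 CPM in Atg7-KO and 281, 317 and 305 CPM in S351A, without overlap (log2 fold change -0.48 ± 0.31, adjusted p 0.849). The Tekt5 window held no match. A match is a string of letters and says nothing of binding, nor does its absence from this window.

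Several of the genes with the smallest p among those lower in S351A were nearly absent from cont. livers. Styk1, a kinase-like membrane protein, had 57.1, 88.3 and 70.5 CPM in Atg7-KO livers, 18.4, 6.21 and 12.3 CPM in S351A livers and no count in any cont. library. Its log2 fold change was -2.53 ± 0.34 with an adjusted p of 0.11. Panx1, which forms a channel for ATP release, had 27.6, 36.3 and 33.4 CPM against 10.3, 7.45 and 3.70 CPM (-2.16 ± 0.35, adjusted p 0.169). Elovl7, a fatty acid elongase, had 140.4, 217 and 179 CPM against 72.4, 54.6 and 34.6 CPM (-1.72 ± 0.29, adjusted p 0.169, DESeq2 adjusted p 0.000166). In cont. the levels of Panx1 did not exceed 0.704 CPM and those of Elovl7 1.27 CPM. The rule that named these 3 genes admitted only genes without overlap, so their lack of overlap is not a separate result. None was called by the main test.

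Other genes that DESeq2 called lower belong to metabolism and transport. Maoa, a monoamine oxidase, had 65.2, 150.4 and 82.4 CPM in Atg7-KO and 27.6, 27.3 and 35.8 CPM in S351A (log2 fold change -1.71 ± 0.37). Slc20a1, a phosphate importer, had 267, 349.6 and 281 CPM against 145, 130.4 and 116.0 CPM (-1.20 ± 0.26). Gapdh, often taken as a reference gene, was among them with 519.9, 631 and 515 CPM against 364, 406 and 321 CPM (-0.61 ± 0.21). These 3 genes were chosen from the DESeq2 calls after their values were seen.

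Some fetal liver and tumour genes had lower levels in S351A. Of the 9 listed, 6 were tested, all 6 had negative log2 fold changes with a median of -1.06, and the same 3 were without overlap and had an unadjusted p below 0.05, against 9.23% and 3.21% of all genes. Tff3, a secreted trefoil peptide, had 70.8, 82.6 and 82.8 CPM in Atg7-KO and 19.5, 39.7 and 14.8 CPM in S351A (-1.67 ± 0.36, adjusted p 0.311, DESeq2 adjusted p 0.00611). Gpc3, a glypican known from liver tumours, had 25.5, 38.8 and 32.5 CPM against 10.3, 9.93 and 2.47 CPM (-2.07 ± 0.51), and Afp, alpha-fetoprotein, had 13.0, 18.3 and 26.1 CPM against 8.04, 1.24 and 2.47 CPM (-2.22 ± 0.58). The lower values of Gpc3 and Afp in S351A stand near or below the level of 3 counts. The median changed to -0.45 when at least 10 counts were required in each compared library.

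Proliferation genes gave small differences. Of 16 tested, 13 were lower and 3 higher, with a median of -0.34 on the log2 scale. Of these, 5 were lower without overlap (9.23% of all genes) and 1 had an unadjusted p below 0.05, which is 6.25% of the list against 3.21% of all genes. Mki67, a marker of cycling cells, had 56.1, 39.1 and 45.8 CPM in Atg7-KO and 35.6, 36.0 and 30.9 CPM in S351A (-0.46 ± 0.21, adjusted p 0.755). Birc5 and Rrm2 had log2 fold changes of -0.98 ± 0.50 and -0.61 ± 0.31.

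The 8 genes named for the smallest p among those higher in S351A were higher still in every cont. library. Sco2, a mitochondrial copper chaperone, was 1 of them, and the following 5 are enzymes. Sult2a8, a bile acid sulfotransferase, had 19.3, 10.1 and 5.03 CPM in Atg7-KO livers, 68.9, 50.9 and 145.6 CPM in S351A livers and 1071, 636 and 1268 CPM in cont. Its log2 fold change was 2.90 ± 0.50 with an adjusted p of 0.177 in edgeR and 1.34e-06 in DESeq2. Oat, which converts ornithine, had 32.2, 23.3 and 40.7 CPM against 101, 78.2 and 290.0 CPM (2.29 ± 0.49, adjusted p 0.311 and 0.000775). Ces1e, a carboxylesterase, had 12.1, 8.26 and 9.61 CPM against 24.1, 28.6 and 39.5 CPM (1.60 ± 0.32), and Car3, a carbonic anhydrase, had 184, 142 and 145 CPM against 337, 287 and 718 CPM (1.51 ± 0.35). Dio1, which activates thyroid hormone, had the tightest S351A values of these, with 43.8, 39.5 and 46.7 CPM against 79.3, 88.2 and 90.1 CPM (0.99 ± 0.22). DESeq2 called all 5 higher.

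**Figure D4:**
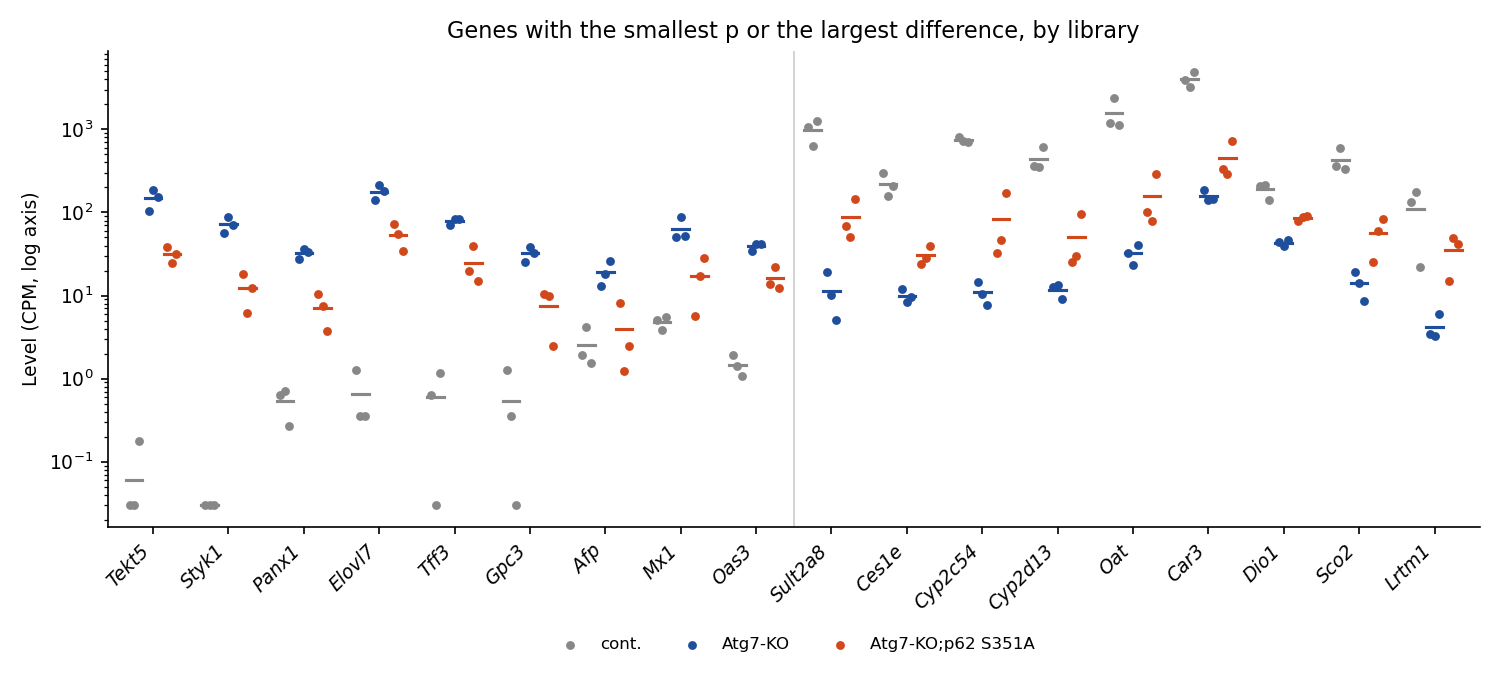
Level of 18 genes in each library (CPM, log axis), lower genes left of the vertical line and higher genes right of it. They are some of those chosen for the smallest p or the largest difference, or from the fetal list. The kidney genes Umod and Kap are not drawn. A library with 0 counts is drawn at 0.03 CPM. All S351A points drawn lie between those of Atg7-KO and cont. other than for Afp, where they reach into the cont. range, and Lrtm1, where they overlap cont. Most of these genes were picked among those without overlap of S351A and Atg7-KO, so their separation from Atg7-KO was set by the choice.

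Cytochrome P450 genes were higher on balance. Of 59 listed, 53 were tested, 41 with positive and 12 with negative log2 fold changes and a median of 0.44, and 11 higher and 3 lower genes had an unadjusted p below 0.05, 20.8% and 5.66% of the list against 3.38% and 3.21% of all genes. Cyp2c54 had 14.6, 10.4 and 7.78 CPM in Atg7-KO and 32.2, 47.2 and 172.8 CPM in S351A (2.91 ± 0.53, adjusted p 0.228, DESeq2 adjusted p 7.6e-06). Cyp2c50 had 17.4, 25.8 and 16.5 CPM against 29.9, 70.8 and 148 CPM (2.05 ± 0.48), and the close similarity of Cyp2c genes means that reads could be assigned to either. Cyp4a14, which oxidises fatty acids, had 2.55, 6.10 and 7.32 CPM against 55.1, 18.6 and 149 CPM (3.87 ± 1.16). The S351A libraries differed by several fold among themselves for all 3 genes, with replicate 3 highest in each.

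The S351A livers differed among themselves in several metabolic lists. The median level of the P450 list relative to the Atg7-KO mean was -0.18, 0.38 and 0.83 in S351A replicates 1 to 3, that of amino acid breakdown -0.33, 0.30 and 0.77, and that of the urea cycle -0.29, 0.15 and 0.67. Bile acid genes gave -0.25, 0.28 and 0.70. Fatty acid oxidation gave -0.15, 0.07 and 0.51, and glucose genes -0.14, 0.36 and 0.42. In each of these 6 lists replicate 1 was below every Atg7-KO library and replicate 3 above every one, whereas lipogenesis (0.41, -0.16 and 0.47) and cholesterol genes (0.30, -0.05 and -0.17) had other orders. Without S351A replicate 3, the median log2 fold change fell to 0.22 for P450 genes, -0.02 for amino acid breakdown, -0.04 for the urea cycle and 0.07 for bile acid genes, from 0.44, 0.39, 0.24 and 0.32. The NRF2 list kept -0.58 in the same fit. P450 genes with an unadjusted p below 0.05 and higher levels were then 4 in place of 11, and 14 without S351A replicate 1. All genes higher at that threshold were 476 of 11800 without S351A replicate 3 and 352 of 11687 without replicate 1, beside 379 of 11199 in the main fit.

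Within amino acid breakdown, 23 of 27 genes had positive log2 fold changes, 4 of them with an unadjusted p below 0.05 (14.8% of the list, 3.38% of all genes) and 7 higher without overlap (7.67% of all genes). Without S351A replicate 1 these counts were 9 and 17, beside 352 and 1693 of the 11687 genes tested in that fit. Prodh, proline dehydrogenase, had 59.9, 68.6 and 74.6 CPM in Atg7-KO and 93.1, 129 and 185 CPM in S351A (1.01 ± 0.27, DESeq2 adjusted p 0.0476). Cbs, which opens the transsulfuration route to cysteine, had 194, 172 and 184 CPM against 247, 273 and 348 CPM (0.66 ± 0.22, adjusted p 0.642). None of the 7 urea cycle genes had an unadjusted p below 0.05.

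Lipid, bile acid and glucose genes held some members without overlap, namely 4 higher and 1 lower of 15 lipogenesis genes, 4 higher of 16 bile acid genes and 4 higher of 10 glucose genes, against 7.67% of all genes higher and 9.23% lower. Elovl5, an elongase of polyunsaturated fatty acids, had 156, 151 and 165 CPM in Atg7-KO and 263, 233 and 333 CPM in S351A (0.81 ± 0.21, DESeq2 adjusted p 0.00348), opposite in sign to Elovl7. In the lipogenesis list 12 of 15 genes were positive, with a median of 0.33 (0.18 without S351A replicate 1). Of 22 genes of fatty acid oxidation 2 were higher at an unadjusted p below 0.05, and of 21 cholesterol genes 1 (9.09% and 4.76%, against 3.38% of all genes), with medians of 0.20 and 0.03. Without S351A replicate 3 the median of fatty acid oxidation was -0.06, and without S351A replicate 1 that of the cholesterol list was -0.16. Abcb11, the bile salt export pump, had 271, 276 and 252 CPM against 319, 386 and 523 CPM (0.62 ± 0.23), and Ppp1r3b, which directs glycogen synthesis, 36.2, 48.5 and 35.2 CPM against 50.6, 58.4 and 120.9 CPM (0.94 ± 0.37).

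Secreted hepatocyte proteins and acute phase genes had mostly positive log2 fold changes. Of 18 secreted proteins 16 were positive with a median of 0.20 (0.10 without S351A replicate 2), none with an unadjusted p below 0.05 and 5 higher without overlap, against 7.67% of all genes. The acute phase list had 15 of 17 positive and a median of 0.34 (0.18 without Atg7-KO replicate 1), with 3 higher at an unadjusted p below 0.05 (17.6% of the list, 3.38% of all genes), namely Saa1, Orm2 and Crp. Orm2 had 40.8, 56.7 and 60.4 CPM in Atg7-KO and 70.1, 188.8 and 117 CPM in S351A (1.25 ± 0.56, adjusted p 0.755).

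ER chaperones had small positive log2 fold changes in 16 of 17 cases, 1 of them at an unadjusted p below 0.05 (5.88% of the list, 3.38% of all genes) and 5 without overlap (7.67% of all genes), with a median log2 fold change of 0.26 that was 0.16 without S351A replicate 1. The median level relative to the Atg7-KO mean was 0.46, 0.14 and 0.14 in the S351A libraries. Hsp90b1, an abundant chaperone of the ER lumen, had 603, 598 and 632 CPM in Atg7-KO and 886, 911 and 1040.3 CPM in S351A (0.63 ± 0.21, adjusted p 0.672 in edgeR and 0.00401 in DESeq2). Calr, calreticulin, had 526, 447 and 525 CPM against 734, 538 and 717 CPM (0.41 ± 0.23). Hspa5, the main ER chaperone, overlapped between the groups. Both Hsp90b1 and Calr were higher still in cont., at 1703 and 1277 CPM on average.

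Genes of autophagy, ER-phagy and the proteasome stayed near the median of all genes. The medians were 0.04 for 24 autophagy genes, -0.10 for 9 ER-phagy receptors and -0.04 for 31 proteasome genes, and 2 of these 64 were lower at an unadjusted p below 0.05, near the 3.21% of all genes, Atg14 (-0.63 ± 0.28) and Psmd8 (-0.48 ± 0.21). Without overlap were 3 lower autophagy genes, 1 higher and 3 lower ER-phagy receptors and 1 higher and 3 lower proteasome genes, against 7.67% of all genes higher and 9.23% lower. The ER-phagy median became -0.17 and -0.05 when Atg7-KO replicates 1 and 3, respectively, were left out. For the ATF4 stress list, 13 of 19 genes were tested, and Gdf15, a secreted stress factor, had 37.1, 66.8 and 61.8 CPM in Atg7-KO and 16.1, 31.0 and 27.2 CPM in S351A (-1.15 ± 0.40, adjusted p 0.686). The median of that list was -0.28 and moved to 0.00 without Atg7-KO replicate 1. Of 14 clock genes tested, Cry2 alone had an unadjusted p below 0.05 (-0.75 ± 0.33), which is 7.14% of the list against 3.21% of all genes.

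Summed markers of other liver cells overlapped between the groups for most cell types and were lower in S351A for macrophages. In bulk tissue fewer cells of a type and less RNA per cell cannot be told apart. The summed level of 17 macrophage genes was 585 to 725 CPM in Atg7-KO livers against 493 to 519.5 CPM in S351A livers, without overlap. Single macrophage genes went both ways, 6 higher and 11 lower, with a median log2 fold change of -0.23. At an unadjusted p below 0.05, 1 was higher and 1 lower (5.88% each, against 3.38% and 3.21% of all genes). That median was -0.46 when at least 10 counts were required in each compared library. The sums of 13 ductular genes were 919 to 1336 and 852 to 1338 CPM, those of 15 matrix and stellate cell genes 1428 to 2000.2 and 1403 to 1928 CPM, and those of 12 endothelial genes 411 to 555 and 423 to 499.8 CPM. The matrix and stellate cell genes were 5 higher and 8 lower, their median being -0.10 on the log2 scale, and the endothelial genes 5 higher and 7 lower with a median of -0.06. Leaving out single libraries turned both signs, with a matrix median from -0.29 (Atg7-KO replicate 2 left out) to 0.04 (Atg7-KO replicate 1 or S351A replicate 3) and an endothelial median from -0.21 (S351A replicate 3 left out) to 0.19 (replicate 2). Des, the muscle filament desmin of stellate cells, had 23.2, 16.5 and 23.8 CPM against 52.8, 33.5 and 22.2 CPM (0.78 ± 0.38, adjusted p 0.77), with overlap. Col3a1, a fibrillar collagen, had 349, 302 and 385 CPM against 248, 183 and 246 CPM (-0.61 ± 0.22, adjusted p 0.694), and Lyve1, a marker of sinusoidal endothelium, 54.3, 64.2 and 85.6 CPM against 47.1, 47.2 and 30.9 CPM (-0.70 ± 0.27). The lymphocyte genes summed to 24.8 to 36.2 CPM and 19.7 to 32.2 CPM with 2 of 10 tested, no neutrophil gene was tested, and the sums of the erythroid genes were 93.3 to 204 and 152 to 219.8 CPM. The hepatocyte identity of the tissue was plain from 18 secreted proteins that summed to at least 59933 CPM in every library. The part of other cells in the differences above was not tested.

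Sex-biased liver genes differed between livers of the same group. The male-biased list summed to 4695 CPM in the male Atg7-KO liver and 9263 CPM in the male S351A liver, and to 1482 to 2395 CPM in the 4 females. The female-biased list summed to 6343 and 6690 CPM in the female Atg7-KO livers and to 3658 and 5293 CPM in the female S351A livers, whereas most of its single genes went the other way. Of 8 female-biased genes tested, 7 had positive log2 fold changes, with a median of 2.02 that became -1.07 when at least 10 counts were required in each compared library. Their median level relative to the Atg7-KO mean was 0.29 and 0.92 in the female Atg7-KO livers and 2.07 and 2.71 in the female S351A livers, against -1.01 and -1.21 in the males. No gene of the male-biased or the female-biased list had an unadjusted p below 0.05, and with sex as a covariate Tekt5 was again the gene called.

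Genes known from the kidney were highest in S351A replicate 1. Umod, the urinary protein uromodulin, had 0.696, 0.359 and 2.29 CPM in Atg7-KO and 70.1, 17.4 and 4.94 CPM in S351A, the largest log2 fold change among the genes named by size (4.91 ± 1.14, adjusted p 0.342). Kap, the kidney androgen-regulated protein, had 5.57, 2.15 and 8.69 CPM against 185, 39.7 and 9.87 CPM, and Napsa, an aspartic protease of kidney and lung, 4.41, 3.59 and 5.95 CPM against 74.7, 23.6 and 7.40 CPM. A list of 21 kidney genes, chosen after these values were seen, summed to 590.5, 135 and 40.7 CPM in S351A replicates 1 to 3, to 15.4 to 32.5 CPM in Atg7-KO and to 5.20 to 64.2 CPM in cont. Of the 21 genes 20 were highest in S351A replicate 1, where none was at 0, whereas 4 to 9 were at 0 in Atg7-KO and 11 in S351A replicate 3. The sum in S351A replicate 3 was also above every Atg7-KO library, but within the range of cont., and the median log2 fold change of the 5 genes tested was 3.32 and became 1.75 without S351A replicate 1. The part of these genes in other differences was not tested. Without S351A replicate 1 the NRF2 median was -0.65.

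**Figure D5:**
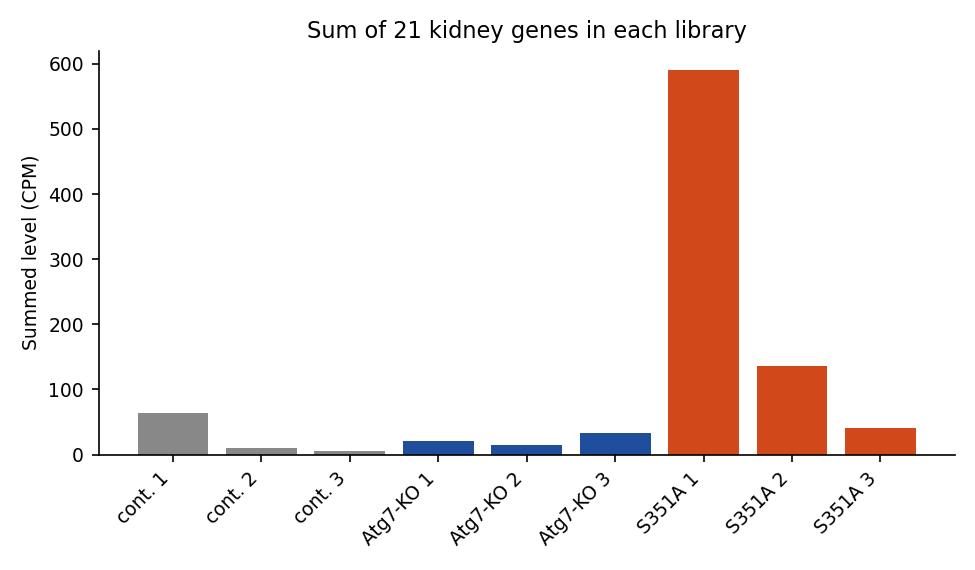
Summed level in CPM of 21 kidney genes (bars, from 0) in each of the 9 libraries. S351A replicate 1 reaches 590.5 CPM and S351A replicate 2 135 CPM, above the 5.20 to 64.2 CPM of the 6 cont. and Atg7-KO libraries.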

How the data were processed

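The authors extracted poly(A) RNA from whole liver, trimmed reads with Trim Galore, aligned them to mm10 with STAR and deposited expected counts per gene from RSEM (versions not given in the sources used here). These were rounded to whole counts. edgeR 4.0.16 (R 4.3.3) kept genes by filterByExpr (minimum count 10, total 15), scaled by TMM and fitted all 9 libraries by quasi-likelihood, with Benjamini-Hochberg adjustment over 11199 genes of 24411. A call needed an adjusted p below 0.05 and a fold change above 1.5. Alternatives were limma 3.58.1, DESeq2 1.42.0, other scalings and filters, thinning cont. and Atg7-KO to the mean S351A total of 755944 counts, covariates and leaving out each library. Log2 levels used a prior count of 2. The errors that the p-values measure are mouse-to-mouse spread and counting error.

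Members and gene lists were chosen with earlier results of these data known. Named genes were those called, Atg7, Sqstm1, Keap1, Nfe2l2, Nqo1, Pgd, Gclc, Gstm1 and Ugdh, up to 3 per list with the smallest p, and, in each direction, 8 with the smallest p and 6 with the largest change at an unadjusted p below 0.05 among genes without overlap and at least 20 CPM in the higher group. Genes outside the rule were chosen from list members or from the DESeq2 calls after their values were seen. The interferon, kidney, central vein and portal vein lists were also chosen after the values were seen. Coordinates came from GENCODE for GRCm38, the same assembly as mm10, and promoters from RefSeq (GRCm38.p6). Of the 2 lymphocyte genes tested, 1 is not reported here.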

Additional observations from a re-analysis of the deposited data

How the results depend on the processing

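The S351A libraries hold fewer counts than any Atg7-KO library and differ more among themselves, and replicates 1 and 2 hold more kidney gene counts per library size than every cont. and Atg7-KO library. Thinning the other libraries to the mean total of S351A left 0 genes called higher and 1 lower (Tekt5, adjusted p 0.0394 in edgeR) and an NRF2 median of -0.64.

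The genes called higher and lower, 0 and 1 as reported, were 61 and 37 without a filter on low counts, 26 and 22 in DESeq2, and 5 and 5 with the 6 compared libraries alone. In limma-voom they were 0 and 0. Leaving out single libraries gave 0 to 1 higher and 0 to 2 lower. The genes with an unadjusted p below 0.05, 379 higher and 360 lower as reported, ranged from 216 to 563 higher and from 201 to 468 lower when single libraries were left out, and those higher were 614 without a filter and 651 with the 6 compared libraries alone. Total library size gave 259 higher and 486 lower, and library sizes without the 20 top genes 287 and 460. The 0 genes called higher stand beside 379 at an unadjusted p below 0.05 and 26 called by DESeq2. The NRF2 median ranged from -0.65 to -0.55 over the 20 alternatives. The cause of these shifts was not tested, beyond the number of genes and libraries each setting holds.

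Replicate numbers were not used to pair the samples in the main fit. Deviations of same-numbered libraries correlated at 0.306, 0.0738 and 0.0919, those of differently numbered ones at -0.199 to 0.124. The value of 0.306 belongs to replicate 1, the male in both groups, so that number and sex cannot be told apart there. With a replicate block 0 genes were called higher and 1 lower, and 433 and 394 had an unadjusted p below 0.05.

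Of 126 named genes, 117 kept their direction in every alternative in which they were tested (2456 values over 20 alternatives). When single libraries were left out, the log2 fold changes of the other genes ranged across 0, from -0.57 to 0.19 for Nfe2l2, -0.012 to 0.61 for Fdps, -0.056 to 0.45 for Stab2, -1.20 to 0.30 for Cd8a, -7.31 to 7.55 for Hbb-bs, -0.60 to 8.38 for Elovl3, -0.47 to 4.05 for Cyp4a12b, -6.75 to 5.23 for Uty and -10.34 to 8.31 for Ddx3y. Uty and Ddx3y also changed sign in limma-voom (0.31 and -0.16). The kidney median could not be computed with at least 10 counts required in each compared library.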

Other observations

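Genes of hepatocytes around the central vein, a list chosen after the values were seen, were higher in S351A. Of 14 genes tested, 13 had positive log2 fold changes with a median of 0.69, and 7 higher and 1 lower had an unadjusted p below 0.05 (3.38% and 3.21% of all genes). DESeq2 called 5 higher, against 0.535% of all genes for which it gave an adjusted p. The median was 0.41 without S351A replicate 3 and 0.36 when at least 10 counts were required in each compared library. Glul, glutamine synthetase, had 186, 228 and 192 CPM in Atg7-KO and 342, 365 and 499 CPM in S351A (log2 fold change 0.99 ± 0.29, adjusted p 0.501 in edgeR and 0.0492 in DESeq2). Slc1a2, a glutamate transporter, had 1.62, 2.87 and 2.29 CPM against 6.89, 8.69 and 34.6 CPM (2.90 ± 0.72), and Tbx3, a transcription factor, 32.9, 38.0 and 31.6 CPM against 111, 72.0 and 70.3 CPM (1.31 ± 0.34). Cyp1a2, a P450 enzyme of the same region, went the other way with 865, 1262 and 1121 CPM against 489, 652 and 634 CPM (-0.87 ± 0.28). The median level of the list relative to the Atg7-KO mean was 0.28, 0.53 and 0.93 in the S351A libraries, all above the Atg7-KO range of -0.11 to 0.17. Of 14 genes of hepatocytes around the portal vein, 8 were positive, with a median of 0.06 and library values of -0.38, 0.05 and 0.53. The difference between these lists was not tested.

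Some interferon-induced genes were lower in S351A, a list also chosen after the values were seen. Mx1, an antiviral GTPase, had 51.3, 87.9 and 52.6 CPM in Atg7-KO and 5.74, 17.4 and 28.4 CPM in S351A (-1.91 ± 0.40, adjusted p 0.311), and Oas3, which makes a messenger that activates RNase L, had 34.6, 42.0 and 41.6 CPM against 13.8, 22.4 and 12.3 CPM (-1.28 ± 0.27). Oas1a and Oas2 were lower without overlap as well. Ifit1, Rsad2, Isg15 and Irf7 overlapped between the groups, and the median of the 18 genes was -0.23. Leaving out S351A replicates 1, 2 and 3 in turn gave -0.15, -0.36 and -0.38, and the S351A libraries stood at -0.73, -0.18 and -0.23 relative to the Atg7-KO mean. Of the 18 genes, 4 had an unadjusted p below 0.05, all lower (22.2%, against 3.21% of all genes).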
